A study of Rattus norvegicus with 21 samples.

Results

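Abcb1a, Abcb1b, Abcb4, Abcb6 and Abcc1 are 5 of the 17025 genes counted in cultured rat islets, and all 5 had enough reads to be tested. They encode ABC transporters, membrane proteins that spend ATP to move substrates across a membrane. The genes were selected on earlier results of these same data: the measured values in view were those of Abcb1a in islets kept for 24 h in glucolipotoxic (GLT) medium, set against the same medium with compound D and against the disputed groups called conditions 2 and 3 here, and the other 4 genes are pump genes listed with it. Comparisons that use 24 h GLT, alone or with compound D, are therefore described by values, fold changes and intervals and carry no test for these 5 genes. The same holds for Abcb1a in every comparison with condition 2 or 3.

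The islets were primary pancreatic islets of Sprague Dawley rats, pooled from 8 animals in each of 3 preparations, and every preparation was divided over the culture groups. Control medium held 11 mM glucose, and GLT medium held 27 mM glucose with 300 µM palmitate. Compounds D and E, known here by letter alone, were added to GLT medium at 300 nM. Of 21 libraries, 3 were 3 h control (condition 1), 3 were 24 h GLT (condition 4), 3 were 3 h GLT with compound D (condition 5), 3 were 24 h GLT with compound D (condition 6), 1 was 3 h GLT with compound E (condition 7, preparation 2) and 2 were 24 h GLT with compound E (condition 8, preparations 1 and 2). The remaining 6 libraries carry conflicting labels. Condition 2 is 24 h control by the sample records and 3 h GLT by the deposited sample sheet, and condition 3 is 3 h GLT by the records and 24 h control by the sheet. Comparisons with these 6 are named by condition number and given under both readings.

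Abcb1a and Abcb1b are the paired rodent genes for P-glycoprotein, the multidrug efflux pump that humans make from a single gene and that guards the blood-brain barrier, gut and liver. Abcb4, next to them on the chromosome, encodes the transporter that moves phosphatidylcholine to the outer leaflet of the membrane and into bile. Abcb6 encodes a transporter tied to porphyrin handling, and Abcc1 encodes MRP1, which exports glutathione and glucuronide conjugates. Multidrug pumps are best known for lowering the level of lipophilic drugs inside cells.

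The stretch upstream of each start site is shown for the 3 neighbouring genes, since they lie side by side and differ in how their transcripts moved. Each sequence holds the 250 bases before the RefSeq start in GRCr8, 5′ to 3′ along the gene's own minus strand. Capitals mark matches to the motifs named after the sequences.
Abcb1a, chr4:26397649-26397898: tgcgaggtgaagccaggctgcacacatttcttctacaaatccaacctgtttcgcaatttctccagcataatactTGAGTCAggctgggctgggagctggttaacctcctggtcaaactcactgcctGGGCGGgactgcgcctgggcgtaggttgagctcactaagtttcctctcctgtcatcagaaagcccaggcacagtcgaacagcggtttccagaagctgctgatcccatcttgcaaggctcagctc
Abcb1b, chr4:26280030-26280279: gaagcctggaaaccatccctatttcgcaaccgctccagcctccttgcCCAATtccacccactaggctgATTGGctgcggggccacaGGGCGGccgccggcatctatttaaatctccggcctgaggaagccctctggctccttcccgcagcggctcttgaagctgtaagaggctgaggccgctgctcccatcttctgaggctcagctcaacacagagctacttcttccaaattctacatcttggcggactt
Abcb4, chr4:26164146-26164395: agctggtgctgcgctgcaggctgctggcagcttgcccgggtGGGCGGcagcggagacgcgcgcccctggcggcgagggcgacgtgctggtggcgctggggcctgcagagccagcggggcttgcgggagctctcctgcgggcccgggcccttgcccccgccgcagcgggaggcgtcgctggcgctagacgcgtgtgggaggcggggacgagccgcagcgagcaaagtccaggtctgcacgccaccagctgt
The Abcb1a window holds an AP-1 match (searched as TGANTCA, found as TGAGTCA, its first base 176 bases before the start) and a GC box (GGGCGG, 124 bases before). Of 33469 RefSeq rat promoter windows of this length, 6.34% hold TGANTCA and 30.5% hold GGGCGG on either strand. The Abcb1b window has no TGANTCA and holds CCAAT on each strand, 203 and 182 bases before the start, with a GC box at 164. CCAAT was present in 34.0% of all windows. The Abcb4 window is 76.0% G and C, against 54.0% for Abcb1a and 58.0% for Abcb1b, and its sole match is a GC box 209 bases before the start. Upstream of Abcb6, CACGTG (5.59% of all windows) lay 226 bases before the start, with CCAAT and GC boxes beside it, and the Abcc1 window held 4 GC boxes. TGATGNAA (3.403% of all windows), TGACNNNGC (10.1%) and GAANNTTC (7.23%) had no match in the 5 windows, which says only that these letters are not there. A match is a string of letters and was not tested as a bound site, and the reads were mapped to another build, rn5.

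Depth ran from 22.3 to 40.2 M counts in genes per library, which puts a floor of 3 counts at 0.0804 to 0.144 CPM (counts per M counted in genes, after TMM scaling by the trimmed mean of M values). The insulin genes Ins1 and Ins2 took 9.32% to 45.9% of the counts and glucagon (Gcg) averaged 15600 to 26120 CPM by group, while 9 acinar markers summed to at most 17.6 CPM in any library. By the SD of their log2 residuals from the fit, condition 3 of preparation 2 (0.643) and 24 h GLT with compound D of preparation 2 (0.43) stood highest. The 2 libraries of 24 h GLT with compound E share 1 value (0.419) because the fit makes their residuals equal and opposite. That value cannot tell which of them stood apart. Insulin took 45.9% in condition 3 of preparation 2 and 43.3% in 24 h GLT with compound D of preparation 2. It took 42.6% in 24 h GLT with compound E of preparation 1, against 40.2% in the next library. Multiply aligned reads were 23.4% in condition 3 of preparation 2 and at most 8.51% in any other library. The lowest TMM factors were 0.682 (compound E, preparation 1) and 0.754 (compound D at 24 h, preparation 2). These are bulk values, so fewer cells of a type and less RNA per cell cannot be told apart. Levels are compared within a gene only, because lengths were not used.

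Abcb1a was high in the 24 h GLT libraries and in those of 24 h GLT with compound E, and low in all others. It measured 52.3, 30.4 and 93.7 CPM in 24 h GLT (preparations 1, 2 and 3, from 1387, 788 and 2635 counts), a mean of 58.8 ± 32.1 (SD, n = 3). With compound D under 24 h GLT it measured 5.36, 1.42 and 10.6 CPM, from 171, 33 and 394 counts. With compound E under 24 h GLT it measured 30.8 CPM in each of the 2 libraries, from 641 and 901 counts. The groups with and without compound D did not overlap, and both compound E libraries lay just above the lowest 24 h GLT library.

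Elsewhere the gene stayed in single digits. Condition 1 gave 2.76, 3.03 and 4.26 CPM, and condition 2 gave 3.23, 2.46 and 4.91 CPM. Condition 3 gave 2.70, 0.631 and 5.88 CPM, its low value coming from the library with the largest residuals. With compound D at 3 h the values were 2.44, 2.09 and 4.28 CPM, and the single 3 h library with compound E had 2.39 CPM. In order of group mean, 24 h GLT (58.8) stood at the top. A gap followed, and then came 24 h GLT with compound D (5.78 ± 4.58), condition 2 (3.53 ± 1.25) and condition 1 (3.35 ± 0.80). Condition 3 (3.07 ± 2.65) and 3 h GLT with compound D (2.93 ± 1.18) came last of these. The compound E groups at 24 h (30.8) and 3 h (2.39) lack preparation 3, so their means cannot be ranked with the others. The groups from 5.78 CPM down all overlapped their neighbours. Preparation 3 gave the highest Abcb1a value in each of the 6 conditions that had 3 preparations.

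**Figure D1:**
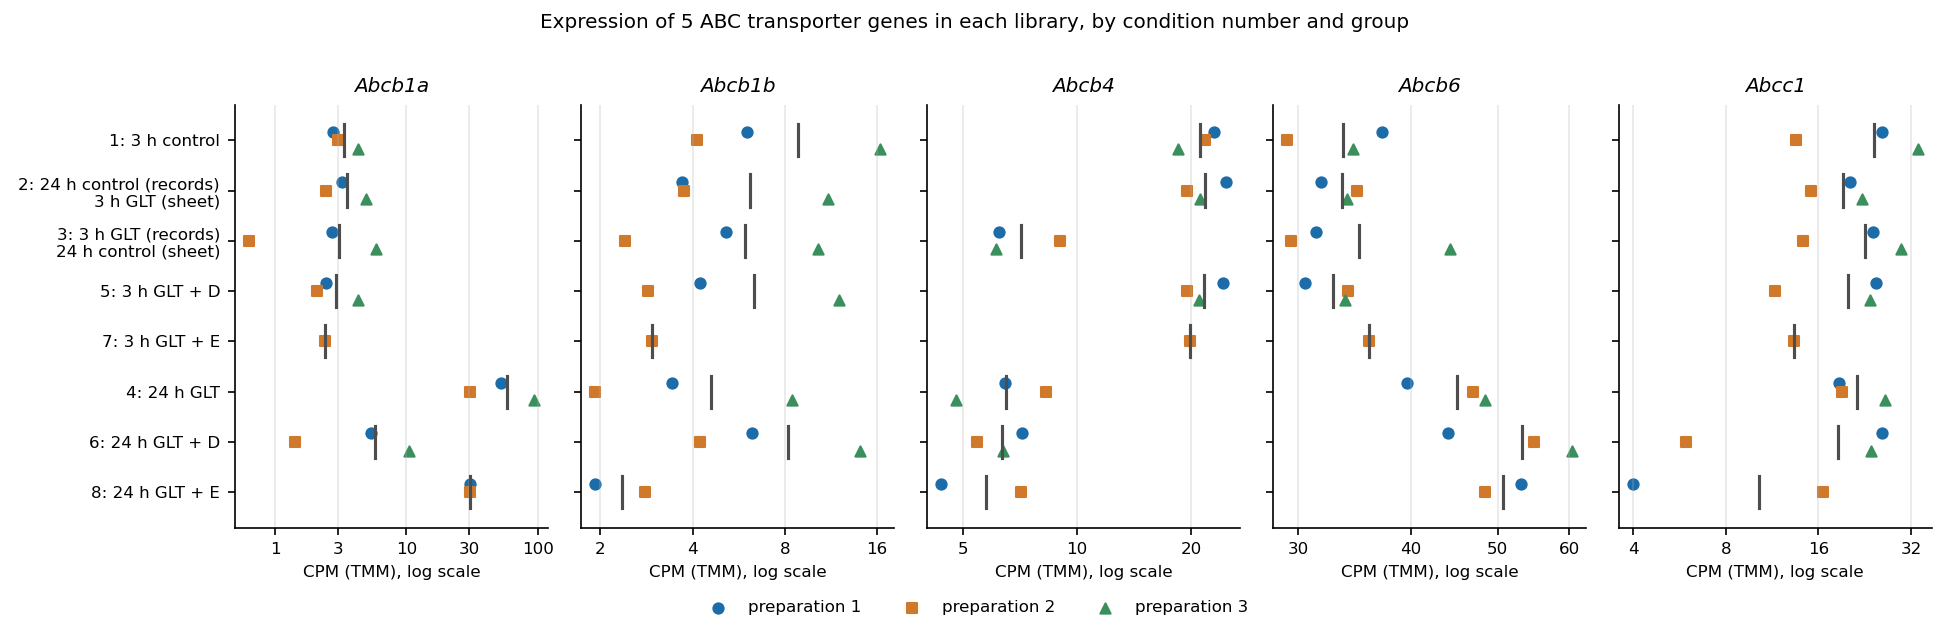
Each panel shows 1 gene, with CPM on a log axis that differs between panels and the 8 culture groups as rows. Symbols are libraries by preparation and the vertical bar is the group mean. Abcb1a lies at 30.4 CPM or more in the 24 h GLT and 24 h GLT with compound E rows and at 10.6 CPM or less in every other row, and Abcb4 splits into libraries at 18.5 CPM or more and at 9.02 CPM or less.

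Under 24 h GLT, Abcb1a was 11.1-fold lower with compound D (fitted log2 difference -3.47, SE 0.42, 95% interval -4.36 to -2.58). The difference was -3.27, -4.35 and -3.14 in preparations 1, 2 and 3. This contrast entered the choice of the genes, so it is a description; 4.08% of the 12576 genes tested passed in it by edgeR's quasi-likelihood test (Benjamini-Hochberg adjusted p below 0.05), 247 higher and 266 lower. With compound E the log2 difference was -0.34 (SE 0.43, interval -1.27 to 0.58), at -0.76 and 0.02 in the 2 preparations, an interval that leaves room for a fall of more than 2-fold as well as a small rise. At 24 h under GLT, 0% of tested genes passed for compound E with edgeR's quasi-likelihood test, and 813 had an unadjusted p under 0.05. Set directly against each other, compound E gave 8.71-fold more Abcb1a than compound D (3.12, SE 0.45, interval 2.17 to 4.08; 2.51 and 4.37 by preparation), in a contrast where 3.01% of genes passed.

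Against the islets without compounds, 24 h GLT held 21.4-fold more Abcb1a than condition 3 (4.42, SE 0.44, interval 3.48 to 5.36; 5.97% of genes passed) and 15.6-fold more than condition 2 (3.97, SE 0.43, interval 3.05 to 4.89; 8.52% passed). By the records the second is the GLT effect at 24 h and the first is 24 h against 3 h of GLT, and by the sheet they trade places. Since the fold was at least 15.6 in each, Abcb1a was higher in 24 h GLT under either reading. The change of the GLT effect from 3 h to 24 h takes the same form under both readings and was 4.42 (SE 0.58, interval 3.17 to 5.66), where 0.0716% of genes (9) passed. It was 4.02, 5.74 and 3.77 in preparations 1, 2 and 3. Over 10 alternative ways of processing, the Abcb1a differences stayed between -3.69 and -3.11 for compound D, 4.12 and 4.75 against condition 3, and 3.83 and 4.22 against condition 2.

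Abcb1a was also higher in 24 h GLT with compound E than in condition 2 (3.62, SE 0.45, interval 2.66 to 4.59) and than in condition 3 (4.08, SE 0.46, interval 3.08 to 5.07), in each of the 2 preparations. In these contrasts 7.89% and 8.48% of all genes passed. Over the 10 alternatives the differences ran from 3.12 to 3.97 and from 3.33 to 4.55.

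At 3 h, and between the groups labelled by number, the Abcb1a differences were small. The log2 difference was 0.004 for condition 2 against condition 1 (SE 0.42, interval -0.89 to 0.89; 2.31% of genes passed). Condition 3 against condition 1 gave -0.45 (SE 0.41, interval -1.33 to 0.43; 0.692% passed). One of these is GLT against control at 3 h and the other is 24 h against 3 h of control culture, in an order that depends on the reading. For 3 h GLT with compound D the differences were -0.27 against 3 h control (edgeR adjusted p = 1.00; 0.103% passed), 0.18 against condition 3 (interval -0.70 to 1.05; 6.93% passed) and -0.28 against condition 2 (interval -1.15 to 0.60; 0.493% passed). The standard errors near 0.41 allow changes of about 2-fold in either direction, so a small early change was not detectable at this depth and number of preparations. From 3 h to 24 h under GLT plus compound D, where 6.11% of genes passed, the difference was 0.78 (SE 0.41, interval -0.09 to 1.64), upward in 2 of 3 preparations.

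**Figure D2:**
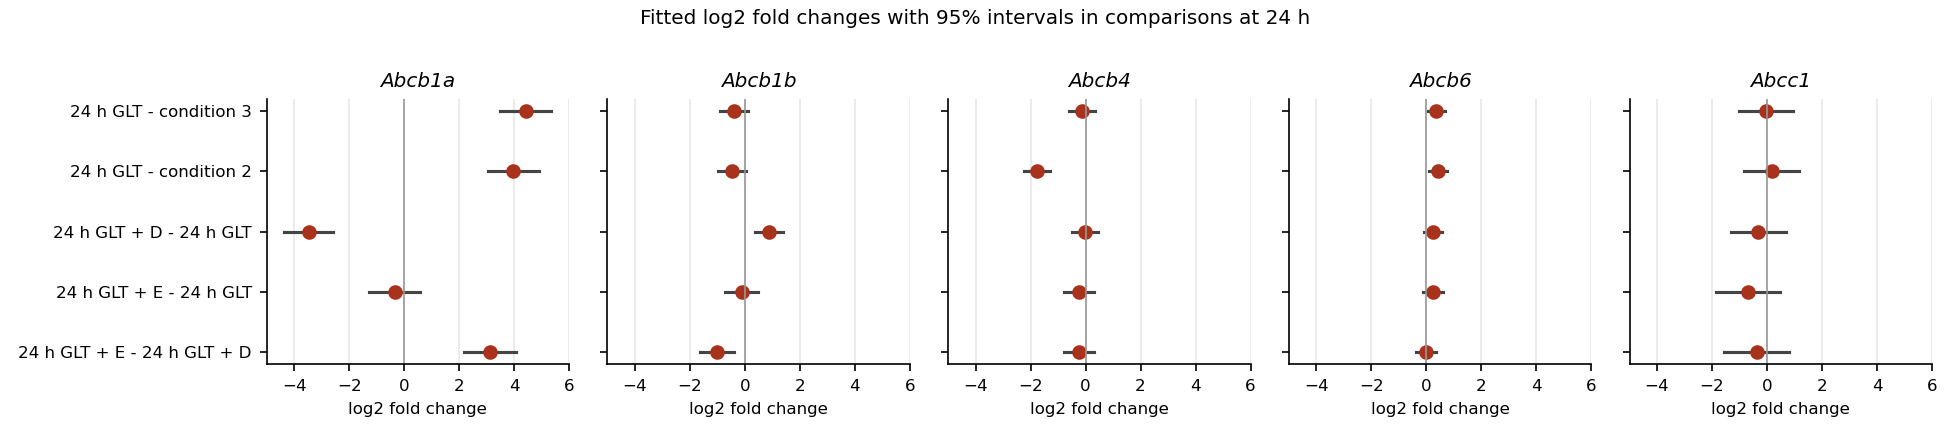
Points are fitted log2 fold changes of the 5 genes (panels) in 5 comparisons (rows), and bars are 95% intervals from the fit. Abcb1a has values above 3.9 for 24 h GLT against conditions 3 and 2 and -3.47 for compound D, while the points of the other 4 genes lie no farther from 0 than -1.76 (Abcb4).

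Abcb1b, the partner gene, did not follow Abcb1a. Its values were 3.43, 1.93 and 8.46 CPM in 24 h GLT and 6.27, 4.23 and 14.0 CPM with compound D. Compound E at 24 h gave 1.92 and 2.80 CPM in preparations 1 and 2. Within each preparation the value was higher with compound D, by 0.86, 1.10 and 0.72 on the log2 scale, although the 2 groups overlapped when preparations were pooled. The fitted difference was 0.90 (SE 0.24, interval 0.38 to 1.41), of the opposite sign to that of Abcb1a. With compound E it was -0.11 (SE 0.28, interval -0.72 to 0.49), and compound E against compound D gave -1.01 (SE 0.28, interval -1.61 to -0.40).

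Abcb1b also differed widely between preparations. Its median over a preparation's libraries was 4.23, 2.91 and 11.5 CPM in preparations 1, 2 and 3. Preparation 3 lay above preparation 1 by 1.39 log2 units, more than for any other of the 5 genes. Condition 1 gave 6.00, 4.13 and 16.3 CPM, condition 2 gave 3.71, 3.75 and 11.0, and condition 3 gave 5.16, 2.40 and 10.2. With compound D at 3 h it measured 4.23, 2.86 and 12.0 CPM, and 2.96 CPM with compound E. Group means ran from 8.82 (condition 1) and 8.17 (24 h GLT with compound D) through 6.35, 6.16, 5.94 and 4.61 (24 h GLT) to 2.96 (3 h GLT with compound E) and 2.36 CPM (24 h GLT with compound E). The last pair lack preparation 3, so their means cannot be ranked with the others, and the rest overlapped.

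The GLT contrasts of Abcb1b were small and negative. 24 h GLT lay below condition 2 by -0.48 (SE 0.24, interval -0.99 to 0.04) and below condition 3 by -0.40 (SE 0.24, interval -0.91 to 0.11), downward in 3 of 3 preparations each time. None of the 7 contrasts that could be tested passed: the edgeR adjusted p was 0.441 for condition 2 against 1 (-0.46), 0.352 for condition 3 against 1 (-0.54), 0.194 for condition 8 against 2 (-0.59) and 0.244 for condition 8 against 3 (-0.52). The contrasts with compound E turned on which library was kept. Without preparation 2, a single compound E library was left, and the values were -1.08 (edgeR adjusted p = 0.0180) and -1.26 (edgeR adjusted p = 0.00911). Without preparation 1 they were -0.24 and 0.13 (edgeR adjusted p = 0.920 and 0.921). Over the 21 libraries, after the preparation effect was taken out, Abcb1a and Abcb1b had a Pearson r of -0.57, a description of libraries that share conditions and depth. The 2 genes are close paralogs, and reads that aligned to more than 1 place were kept out of gene counts, so the level of each may be undercounted.

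Abcb4 had a pattern of its own, with no library between 9.02 and 18.5 CPM. It measured 23.1, 21.8 and 18.5 CPM in condition 1, 24.7, 19.5 and 21.1 in condition 2, 24.2, 19.6 and 21.02 in 3 h GLT with compound D, and 19.9 in 3 h GLT with compound E. It measured 6.22, 9.02 and 6.12 CPM in condition 3, 6.45, 8.26 and 4.80 in 24 h GLT, 7.18, 5.44 and 6.38 in 24 h GLT with compound D, and 4.37 and 7.11 in 24 h GLT with compound E. By the sheet, every low library is a 24 h library and every high library a 3 h library. By the records, the low libraries include 3 h GLT and the high ones include 24 h control.

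Condition 3 lay below condition 1 (log2 difference -1.57, SE 0.22, edgeR adjusted p = 0.00678), downward in 3 of 3 preparations. 3 h GLT with compound D lay above condition 3 (1.61, SE 0.22, edgeR adjusted p = 0.00128), and 24 h GLT with compound E lay below condition 2 (-1.998, SE 0.27, edgeR adjusted p = 0.00108). Abcb4 passed in none of the contrasts within the high libraries or within the low ones: condition 2 against 1 gave 0.05 (edgeR adjusted p = 0.970), condition 5 against 2 gave -0.01 (edgeR adjusted p = 1.00), condition 5 against 1 gave 0.04 (edgeR adjusted p = 1.00) and condition 8 against 3 gave -0.37 (edgeR adjusted p = 0.344). The first of these calls was lost without preparation 1 (edgeR adjusted p = 0.377) or 3 (0.158) and on the conditions compared alone (0.541), with log2 differences between -1.57 and -1.42. The second was lost likewise (edgeR adjusted p = 0.129, 0.0673 and 0.162), and the third without preparation 1 (0.350), while the log2 differences stayed between 1.44 and 1.88 and between -2.49 and -1.61 over the 10 alternatives.

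Contrasts described without a test gave the same split. The log2 difference was -1.76 (SE 0.22) for 24 h against 3 h under GLT plus compound D and -1.76 (SE 0.22) for 24 h GLT against condition 2. It was -0.14 (SE 0.22, interval -0.61 to 0.33) for 24 h GLT against condition 3, -0.01 (SE 0.22, interval -0.48 to 0.46) for compound D and -0.24 (SE 0.25, interval -0.77 to 0.30) for compound E under 24 h GLT. Both intervals stay inside a 2-fold change.

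The sum of markers of endothelial cells, which line the islet's capillaries, moved with Abcb4. The 13 endothelial genes matched, none of them at 0 in any group, summed to between 259 and 338 CPM in conditions 1, 2, 5 and 7, and to between 49.1 and 165 CPM in conditions 3, 4, 6 and 8. The receptor gene Kdr averaged 40.1 CPM in condition 1 and 16.4 in condition 3, and Plvap, a gene of fenestrated endothelium, 50.4 and 11.2. Egfl7 and Cldn5 did not split this way. Egfl7 averaged 7.8 and 6.7 CPM in conditions 1 and 5, and 6.5, 7.9 and 9.3 in conditions 3, 6 and 8. Cldn5, below 1 CPM, averaged 0.14 in condition 1 and 0.52 and 0.63 in conditions 6 and 8. Of the 13, 3 fell and 0 rose in condition 3 against 1 (0.692% of all genes passed), 5 rose and 0 fell in condition 5 against 3 (6.93%), and 4 fell and 0 rose in condition 8 against 2 (7.89%). Red cell genes split in the same way: 4 matched genes summed to at least 4.03 CPM in the high Abcb4 libraries and to at most 1.34 in the low ones, although the defining marker Alas2, at a mean of at most 0.0949 CPM in any group, was too near the floor to read. Some stellate cell markers moved the other way. Of 8, 3 rose in condition 3 against 1, 4 fell in condition 5 against 3 and 3 rose in condition 8 against 2, with none in the opposite direction. The 8 summed to between 1104 and 1519 CPM in condition 3 and to between 346 and 598 CPM in conditions 1, 2 and 5. Of the other low Abcb4 groups, 24 h GLT (481 to 889 CPM) and 24 h GLT with compound D (346 to 871) overlapped the high ones. Compound E gave 711 to 922 CPM at 24 h and 627 at 3 h. In 24 h GLT, 3 rose and 1 (Pdgfrb) fell against condition 2, and 2 (Col1a1 and Acta2) fell against condition 3. The part of these cell types in the Abcb4 values was not tested. Beside Abcb1a, the endothelial sum was 59.1 to 130 CPM in 24 h GLT and 143 to 145 CPM with compound E, against 49.1 to 165 CPM with compound D. Some islet cell markers fell in 24 h GLT. Of 7 beta cell markers, 3 fell against condition 2 and 2 against condition 3. Among alpha and delta cell markers, 2 of 5 and 1 of 3 fell against condition 3, and 0 passed against condition 2. None of these islet cell markers rose in either contrast (8.52% of all genes passed against condition 2 and 5.97% against condition 3). Their part in the Abcb1a values was not tested.

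**Figure D3:**
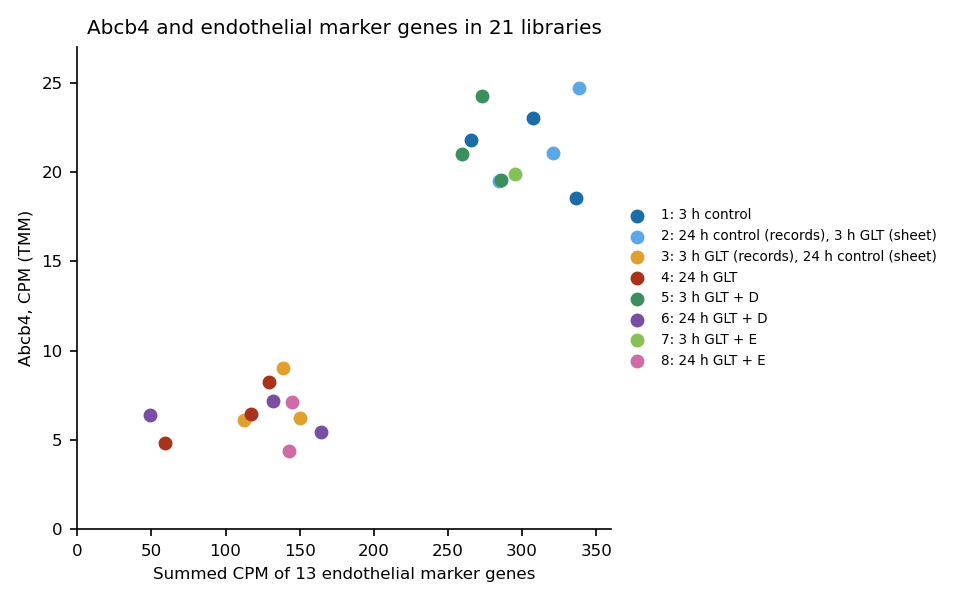
Each point is 1 of 21 libraries, with the summed CPM of 13 endothelial marker genes on the horizontal axis and Abcb4 CPM on the vertical axis, coloured by condition. The 10 libraries of conditions 1, 2, 5 and 7 lie at 259 CPM or more of marker sum and 18.5 CPM or more of Abcb4, and the 11 others lie at 165 and 9.02 CPM or less.

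Abcb6 had its 3 highest group means in the 24 h GLT groups, with and without compounds. It measured 39.6, 46.9 and 48.4 CPM in 24 h GLT, 44.1, 54.9 and 60.4 with compound D, and 53.0 and 48.4 with compound E. Condition 1 gave 37.2, 29.1 and 34.5 CPM, condition 2 gave 31.8, 34.9 and 34.0, and condition 3 gave 31.4, 29.4 and 44.3. With compound D at 3 h it measured 30.5, 34.1 and 33.8 CPM, and with compound E 35.9. The 3 GLT groups at 24 h overlapped one another. So did conditions 1, 2, 3 and 5, and the single 3 h library with compound E lay within conditions 1 and 3 and above conditions 2 and 5. Only the 44.3 CPM of condition 3 (preparation 3) reached into the range of the upper groups.

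Compound E at 24 h lay above condition 2 (0.66, SE 0.17, edgeR adjusted p = 0.0280) and above condition 3 (0.61, SE 0.17, edgeR adjusted p = 0.0389), by about 1.5-fold. Neither call held when TMM scaling was replaced by library size (0.51 and 0.28, edgeR adjusted p = 0.347 and 0.551) or without compound E of preparation 1 (0.56 and 0.50, edgeR adjusted p = 0.237 and 0.334), and most other alternatives lost at least 1 of them. The 5 tested contrasts among conditions 1, 2, 3 and 5 stayed between -0.08 and 0.04, with no call. Described without a test, 24 h GLT lay above condition 2 by 0.42 (SE 0.15, interval 0.10 to 0.74) and above condition 3 by 0.37 (SE 0.15, interval 0.05 to 0.69). The difference was 0.69 (SE 0.15, interval 0.37 to 1.01) for 24 h against 3 h under GLT plus compound D. Compound D gave 0.24 (SE 0.15, interval -0.08 to 0.55), compound E 0.24 (SE 0.17, interval -0.12 to 0.60), and the 2 compounds differed by 0.01 (SE 0.17, interval -0.36 to 0.37).

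Abcc1 varied between libraries more than between groups. The 24 h GLT libraries gave 18.6, 19.1 and 26.3 CPM, those with compound D 25.7, 5.96 and 23.8, and those with compound E 3.99 and 16.5. Condition 1 gave 25.8, 13.6 and 33.6 CPM, condition 2 gave 20.2, 15.1 and 22.2, and condition 3 gave 24.1, 14.3 and 29.6. With compound D at 3 h the gene measured 24.6, 11.5 and 23.6 CPM, and with compound E 13.3. The lowest pair, 3.99 and 5.96 CPM, came from the compound E library of preparation 1 and the 24 h compound D library of preparation 2, which also had the lowest TMM factors. Preparation 2 held the lowest value in conditions 1, 2, 3, 5 and 6.

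None of the 7 tested contrasts of Abcc1 passed, with edgeR adjusted p from 0.400 (condition 8 against 3, -0.72, SE 0.55) to 1.00. The compound D difference under 24 h GLT was -0.32 (SE 0.47, interval -1.32 to 0.68) and became 0.10 without the low library of preparation 2. The compound E difference was -0.70 (SE 0.55, interval -1.86 to 0.47), at -2.20 in preparation 1 and -0.21 in preparation 2. Without preparation 2, the single compound E library left put the gene below condition 2 by -2.31 (edgeR adjusted p = 0.000297) and below condition 3 by -2.66 (edgeR adjusted p = 0.000366). Without the library of preparation 1 the same contrasts were 0.41 and 0.21, so their sign rests on which of the 2 compound E libraries is used.

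The chromosomal neighbours of the Abcb1 pair were read from RefSeq. In order along chromosome 4 they are Dmtf1, Tmem243, Crot, Abcb4, Abcb1b, Abcb1a, Rundc3b, Slc25a40 and Dbf4. None of the 6 genes beside the 3 transporter genes passed with compound D under 24 h GLT or for 24 h GLT against condition 2 or 3. Of all genes, 4.08%, 8.52% and 5.97% passed in these contrasts, so 6 genes are too few to set apart from those shares. Rundc3b, adjacent to Abcb1a, had log2 differences of 0.39 with compound D and -0.20 and -0.26 for 24 h GLT against conditions 2 and 3. The largest value was that of Dbf4, a cell cycle kinase regulator, at 1.09 for 24 h GLT against condition 3 (edgeR adjusted p = 0.0859) and 0.03 against condition 2.

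**Figure D4:**
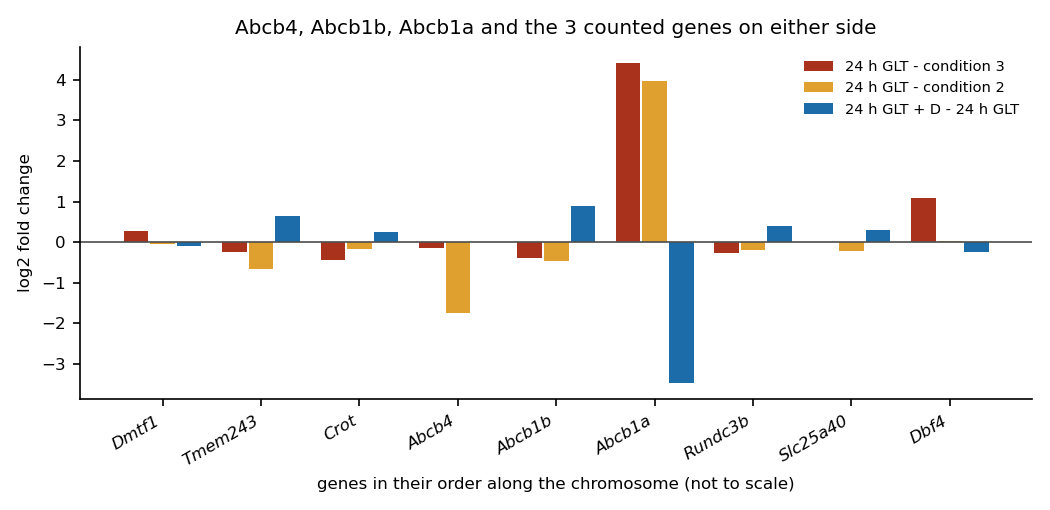
Bars are fitted log2 fold changes of 9 genes in their order along chromosome 4, not to scale, in 3 comparisons given by colour. Abcb1a reaches 4.42, 3.97 and -3.47, Abcb4 reaches -1.76 against condition 2, and no gene that is not an ABC transporter gene goes beyond 1.09 in size.

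Genes whose pattern was most like that of Abcb1a were ranked by Pearson r of log2 CPM over the 21 libraries, with the preparation effect taken out, among 9256 genes. These libraries share conditions and depth, and the r is a description. The 8 nearest were Bcat1 (0.97), a cytosolic branched-chain aminotransferase gene, Gpr50 (0.96), Ap2a2 (0.95), an adaptor subunit gene of clathrin coats, Ipcef1 (0.95), Agpat9 (0.94), Clpx (0.94), a mitochondrial protease subunit gene, Slc39a11 (0.93), a zinc carrier gene, and Cd55 (0.93), a complement regulator gene. Their log2 differences with compound D under 24 h GLT ran from -5.53 (Gpr50) to -0.48 (Slc39a11). The ranking used these same libraries, so the shared direction follows from how the genes were picked. Nearest to Abcb1b were Inpp5b (0.80), Rundc3b (0.80), which lies beyond Abcb1a on the same chromosome, and Mob3c (0.79). Abcb4 lay nearest to Olfml2a (0.97), Tp53inp2 (0.97) and Ppfia2 (0.94). Abcb6 lay nearest to Nqo1 (0.92), a quinone reductase gene, Psmd2 (0.92), a proteasome subunit gene, and Clpb (0.92), and Abcc1 nearest to Slc4a7 (0.96), Actr2 (0.96) and Ubr1 (0.95). Among the 5 genes themselves, the highest r was 0.59 (Abcb1a with Abcb6) and the lowest -0.75 (Abcb4 with Abcb6).

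Of 52 other ABC transporter symbols, 43 matched the count table and 35 had enough reads to be tested. With compound D under 24 h GLT, 1 rose and 1 fell (edgeR adjusted p below 0.05, as in all counts that follow), a share near the 4.08% of all genes, and the list's median log2 difference was 0.05, against 0.01 over all genes. Abcd2, which carries very long chain fatty acids into peroxisomes, rose from 0.617 to 2.26 CPM (1.89, SE 0.35, edgeR adjusted p = 0.00848). Abcc10, a multidrug resistance protein gene, fell from 45.2 to 21.7 CPM (-1.08, SE 0.26, edgeR adjusted p = 0.0308). Without preparation 1, without preparation 3 or without the compound D library of preparation 2, 0 of the 35 passed in this contrast. With compound E, 0 of the 35 passed in edgeR and 0 in DESeq2 (median -0.04, against 0.04 over all genes). Without preparation 2, which leaves 1 compound E library, the count was higher, and no share of all genes is given for that fit. Between the compounds Abcc10 was higher with E (1.20, SE 0.28, edgeR adjusted p = 0.0344) and Abcd2 lower (-1.85, SE 0.41, edgeR adjusted p = 0.0232), in a list whose median was -0.18. The count of 2, beside 3.01% of all genes, became 0 without preparation 3 or without the compound D library of preparation 2. In fits that leave 1 compound E library, it rose without preparation 2. It fell without preparation 1 or without the compound E library of preparation 1.

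In 24 h GLT against condition 2, 3 of the 35 rose and 2 fell (median 0.07, against -0.02 over all genes, of which 457 rose and 615 fell, 8.52%). Among those that rose were Abcc10 (1.44, SE 0.26) and, at below 1 CPM, Abca17 (1.92, SE 0.55). Abcd2 (-1.42, SE 0.36) and Abcg1 (-0.59, SE 0.15), a cholesterol efflux transporter gene, fell. Against condition 3, Abcg1 (-0.72, SE 0.15) and Abcd2 (-1.44, SE 0.36) fell and 0 rose (median 0.08, against -0.004 over all genes, of which 5.97% passed). Without preparation 1 or 3, 0 of the 35 passed in either contrast. Abcg1 and Abcd2 were thus lower in 24 h GLT under both readings, while Abcc10 against condition 3 was 0.73 (SE 0.25, edgeR adjusted p = 0.106).

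In 24 h GLT with compound E, 3 rose and 3 fell against condition 2 (median -0.06; 7.89% of all genes passed) and 3 rose and 2 fell against condition 3 (median -0.12; 8.48%). Abcc10 rose from 16.6 to 50.9 CPM against condition 2 (1.57, SE 0.29, edgeR adjusted p = 0.00614), and Abca1, the cholesterol exporter of high-density lipoprotein formation, fell from 102 to 26.7 CPM (-1.72, SE 0.49, edgeR adjusted p = 0.0442). Abcg1 fell in both contrasts (-0.63 and -0.76). Both counts fell without the compound E library of preparation 1 and rose without preparation 2. Each of these fits leaves 1 compound E library, and the share of all genes that passed is given for the main fit only. From 3 h to 24 h under GLT plus compound D, Abcc3 (0.72, SE 0.13), a bile salt and conjugate exporter gene, and Abca17 (2.85, SE 0.53) rose. Abca1 (-1.59, SE 0.41) and Abcg1 (-0.54, SE 0.15) fell in this contrast, where 6.11% of all genes passed. In 3 h GLT with compound D against condition 3, Abcg2, the breast cancer resistance protein gene (2.23, SE 0.49), and Abca13 (2.71, SE 0.71) rose at levels below 1 CPM. Abcc10 fell (-1.12, SE 0.26) in this contrast, where 6.93% of all genes passed. 0 of the 35 passed in condition 2 against 1 (2.31% of all genes passed), condition 5 against 1 (0.103%) and condition 5 against 2 (0.493%). The count was also 0 in condition 3 against 1 (0.692%) and in the change of the GLT effect (0.0716%). At an unadjusted edgeR p under 0.05 the counts over all genes were 1659, 817, 849, 1627 and 1050 of 12576, in that order. DESeq2 called 1 list gene in condition 2 against 1, 2 in condition 3 against 1 and 0 in the other contrasts just named. Abcc8, the sulfonylurea receptor subunit of the beta cell's ATP-sensitive potassium channel, averaged 236 to 356 CPM by group and passed in none of the 14 contrasts.

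Genes that feed and surround these pumps were read from 3 further lists. Of 23 tested genes for xenobiotic receptors, enzymes and uptake carriers, 3 rose and 1 fell with compound D under 24 h GLT (median 0.27; 4.08% of all genes passed). The organic anion uptake carrier gene Slco1a5 fell from 9.98 to 3.65 CPM (-1.54, SE 0.21, edgeR adjusted p = 0.00106) with compound D, and was higher in 24 h GLT than in condition 2 (0.69, SE 0.20) and condition 3 (0.90, SE 0.20). The glutathione transferase gene Gsta3 (1.69, SE 0.38), the aldehyde dehydrogenase gene Aldh1a1 (2.32, SE 0.54) and the prostaglandin carrier gene Slco2a1 (1.20, SE 0.30) rose. In 24 h GLT the bilirubin glucuronosyltransferase gene Ugt1a1 was higher than in condition 2 (2.86, SE 0.41) and condition 3 (1.41, SE 0.38). It was 1 of 6 of the 23 list genes that passed in the first contrast (4 rose, 2 fell), where 8.52% of all genes passed. In the second it was 1 of 2 (both rose), where 5.97% of all genes passed. Ugt1a genes share their last exons, so their counts may be split or lost. In 24 h GLT with compound E, 5 rose and 1 fell against condition 2, and 6 rose and 0 fell against condition 3 (7.89% and 8.48% of all genes passed), with Nqo1 (1.502 and 1.39) and Gsta3 (2.38 and 1.90) among them.

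Heme and porphyrin genes, the setting of Abcb6, that passed in these contrasts all rose. Of 18 tested, 5 rose and 0 fell from 3 h to 24 h under GLT plus compound D (median 0.31; 6.11% of all genes passed), 3 and 0 in 24 h GLT against condition 2 (8.52%), and 5 and 0 in compound E against condition 2 (median 0.64; 7.89%). None passed in 24 h GLT against condition 3 (5.97% of all genes passed), and 2 rose in compound E against condition 3 (8.48%). Hmox1, the heme-degrading enzyme gene, rose from 135 to 807 CPM from 3 h to 24 h under GLT plus compound D (2.63, SE 0.34, edgeR adjusted p = 0.000732). Fech, which inserts iron into the porphyrin ring, rose in the same contrast (0.59, SE 0.13). With compound D under 24 h GLT the heme carrier gene Slc48a1 alone passed (0.85, SE 0.20, edgeR adjusted p = 0.0303), where 4.08% of all genes passed.

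Glutathione genes, the setting of Abcc1, moved in both directions. Of 18 tested, 5 rose and 1 fell in compound E against condition 2, and 4 rose and 0 fell against condition 3 (7.89% and 8.48% of all genes passed). Gpx2, a glutathione peroxidase gene, rose in both (2.02 and 2.18), as did Gsr, the glutathione reductase gene (1.04 and 0.77). In 24 h GLT, 1 rose and 3 fell against condition 2 (8.52% of all genes passed), and 1 rose and 1 fell against condition 3 (5.97%). The cystine carrier gene Slc7a11 was higher than in condition 3 (2.07, SE 0.35) and did not pass against condition 2. Chac1, which breaks glutathione down, was lower than in condition 2 (-1.93, SE 0.22). It did not pass against condition 3, where it averaged 69.6 CPM against 84.9 in 24 h GLT. The glutaredoxin gene Glrx was the sole member that passed with compound D under 24 h GLT (1.15, SE 0.26, edgeR adjusted p = 0.0232), where 4.08% of all genes passed. It was lower in 24 h GLT than in conditions 2 and 3 (-1.01 and -1.02).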

How the data were processed

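Raw read counts per gene for 21 libraries were used as deposited. Per the labels, the authors aligned read pairs by TopHat2 2.0.3, which ran Bowtie2 2.0.0, on the rn5 genome and made the counts with HTSeq. The strand setting and the annotation are not given in the sources used here. Rows that name no gene were left out: reads outside genes were 10.3% to 18.7% of a library, multiply aligned ones 4.92% to 23.4%, and those assigned to several genes 0.161% to 2.32%.

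All genes kept by filterByExpr (12576) were fitted with edgeR 4.0.16 (R 4.3.3), with TMM scaling, a term per condition and the preparation as a replicate block. Quasi-likelihood tests were 2-sided, with an adjusted p (Benjamini-Hochberg) below 0.05 taken as passing. Preparations pool rats and were divided over the groups, so numbers pair the libraries (mean correlation of residuals within a preparation 0.233; 0.076, 0.208 and 0.487). Libraries of a group differed beyond counting error (lowest chi-square per degree of freedom 27.7). The likeness ranking used log2 CPM with a prior count of 2 among genes of at least 5 CPM in 1 group. Fits were tested on simulated data. DESeq2 1.42.0, library-size scaling, no low-count filter, no block, libraries left out and fits on the compared conditions alone were alternatives.

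The 5 genes and all gene lists were chosen with earlier results of these data known. Abcb1a values in conditions 2 and 3 were among those results, so its contrasts with them carry no test either, although the planned design gave one. Named genes were the 5, up to 4 list genes per contrast that passed (by smallest adjusted p) and the nearest patterns. Values of 1 list gene are not reported here. Abcc8, and list genes named beyond 4, were chosen after their values were seen. Counting error sets a limit on precision, libraries of a group differed beyond it, and reads are not independent molecules.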

Additional observations from a re-analysis of the deposited data

Results flagged for a closer look

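The GLT effect on Abcb1a differed between the times of culture. The effect at 24 h exceeded that at 3 h by 4.42 on the log2 scale (SE 0.58), an interaction with the same form under both readings of conditions 2 and 3, and it was positive in 3 of 3 preparations. It is built on the contrasts of 24 h GLT with conditions 2 and 3 that were in view when the gene was chosen, so it is a description here and its cause was not tested.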

How the results depend on the processing

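Every fold change of the 5 genes was recomputed under 10 alternatives (700 values), 1 of them, leaving out the 24 h compound D library of preparation 2, chosen after the data were seen. None of the called values changed direction, 67 values changed sign in 32 results whose 95% intervals all held 0, and the calls lost or gained are given with the genes that carry a test. The counts of other ABC transporter genes that passed (of 35) moved more, and the cause was not tested. The share of all genes that passed is given for the main fit only, so counts under the alternatives have no share beside them. With compound D under 24 h GLT the count was 2, and 1 under library-size scaling, without the replicate block and on the compared conditions alone. Compound E against compound D gave 2, and 1, 1 and 0 under the same settings. 24 h GLT against condition 2 gave 5, and 3, 1 and 13, while against condition 3 it gave 2, and 0 under library-size scaling and 0 without the replicate block. 24 h against 3 h of GLT with compound D gave 4, and 1, 2 and 8, and 7 with DESeq2. Condition 5 against 3 gave 3, and 1 under library-size scaling, 0 on the compared conditions and 5 with DESeq2. Condition 8 against 2 gave 6, and 0, 3 and 2, and against condition 3 it gave 5, and 0, 1 and 0, with 2 without the filter on low counts and 8 with DESeq2. DESeq2 gave 1 for condition 2 against 1 and 2 for condition 3 against 1, where edgeR gave 0.

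Leaving out a preparation or a library that stood apart moved the counts between 0 and 2 for compound D, 0 and 8 for compound E, 0 and 12 for compound E against D, 0 and 7 for 24 h GLT against condition 2, 0 and 3 against condition 3, 0 and 1 for condition 3 against 1, 0 and 7 for 24 h against 3 h with compound D, 0 and 5 for condition 5 against 3, 0 and 13 for condition 8 against 2, and 0 and 11 against condition 3. A lone compound E library, left without preparation 1 or 2, is assumed to vary like the other groups. The libraries left out by themselves were 24 h GLT with compound E of preparation 1 and 24 h GLT with compound D of preparation 2. Condition 3 of preparation 2, with the largest residuals (0.643) and 23.4% multiply aligned reads, was not left out by itself. Depth limits genes near 1 CPM or below, among them Abca17, Abca13, Abcg2 and Abcd2.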
